A study of Mus musculus with 72 samples.

Results

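Oxidative phosphorylation subunits are the proteins of the 5 enzyme complexes that the mitochondrion uses to make ATP. The genes described here are all those whose symbol in the probe annotation starts with *Ndufa*, *Ndufb*, *Ndufc*, *Ndufs*, *Ndufv*, *Sdh*, *Uqcr*, *Cox4* to *Cox8* or *Atp5*. The rule took 89 of the 16593 genes measured, with 111 of the 25697 probes. Of the 89 genes, 78 encode subunits, 7 of them isoforms known from tissues other than liver, and 11 were caught by their prefix only. These 11 are the complex I assembly factors *Ndufaf1*, *Ndufaf3*, *Ndufaf4*, *Ndufaf5* and *Ndufaf7*, the complex II assembly factors *Sdhaf1* to *Sdhaf4*, the supercomplex factor *Cox7a2l* and the pseudogene *Ndufs5-ps*.

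Complexes I and II pass electrons from NADH and succinate to ubiquinone, complex III passes them on to cytochrome c, and complex IV to oxygen. Complexes I, III and IV pump protons, and complex V, the ATP synthase, lets them flow back through its Fo part and makes ATP in its F1 part. Hepatocytes are rich in mitochondria, and part of every complex except II is encoded by mitochondrial DNA and does not belong to the genes described here.

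Liver RNA came from *Scp2* KO mice, which lack the whole *Scp2* locus and with it the sterol carrier protein SCP2 and the peroxisomal thiolase SCPx, and from C57Bl/6J control mice (WT). Both lines came from Jackson Laboratory, the KO backcrossed into C57Bl/6. All mice were males 10 to 12 weeks old, kept in cycles of 12 h light and 12 h dark and fed only at night for 4 days before they were killed. The 72 arrays (Illumina mouse BeadChips, biotin-labelled RNA) hold 36 KO and 36 WT livers, with 3 per genotype at each of 12 Zeitgeber times (ZT) from ZT0, lights on, to ZT22. The legends of the study speak of independent animals. The series is described as sampled over 3 consecutive days, and the labels do not say whether a replicate number or a set marks a day. In bulk liver RNA, fewer cells of a type and less RNA per cell cannot be told apart.

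Values below are log2 signals after background correction and quantile normalization, with the brightest probe standing for a gene. A difference is KO minus WT, so that 1 unit is a doubling. Probes differ in brightness for reasons other than mRNA amount, so levels are compared between groups and not between genes. The probes of *Atp5b*, *Atp5g3*, *Atp5j2*, *Ndufa4* and *Uqcr10* gave the highest signals of the members (means of 12.42 to 13.50), and those of *Cox8c*, *Cox4i2*, *Cox7b2*, *Uqcrq* and *Ndufs1* the lowest (5.82 to 5.92). The raw median signal lay between 95.5 and 114 in KO arrays and between 96.1 and 114 in WT arrays. Of the 4 probes of *Scp2*, one averaged 5.89 ± 0.12 in KO and 12.24 ± 0.14 in WT (SD, n = 36 each) and another differed by -6.93, so the deleted gene followed the labels. The third averaged 10.30 ± 0.32 in KO and 11.77 ± 0.23 in WT, and the fourth lay near background in both. A WT array of set 6 at ZT12 stood apart, with a median correlation of 0.964 with the other arrays against 0.982 for the next, and the median member lay 0.236 below its mean over all arrays there. Results that rest on it are also given without it.

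The first question was which of the 89 genes differed between genotypes whatever the time. Of them 6 rose and 7 fell in KO (limma, 36 against 36 arrays, Benjamini-Hochberg adjusted p under 0.05 over all 16593 genes). Among all genes tested 5.93% were higher and 6.38% lower, 12.3% in either direction, so the 14.6% of members called is close to the array as a whole. The largest differences were a rise of *Ndufb3* and a fall of *Atp5g1*, both under 0.31 in size. The median difference of the 89 was -0.01, against -0.00028 for all genes. For 83 of the 89 the whole 95% confidence interval lay within 0.2 of no difference, as it did for 14860 of all 16593 genes.

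**Figure D1:**
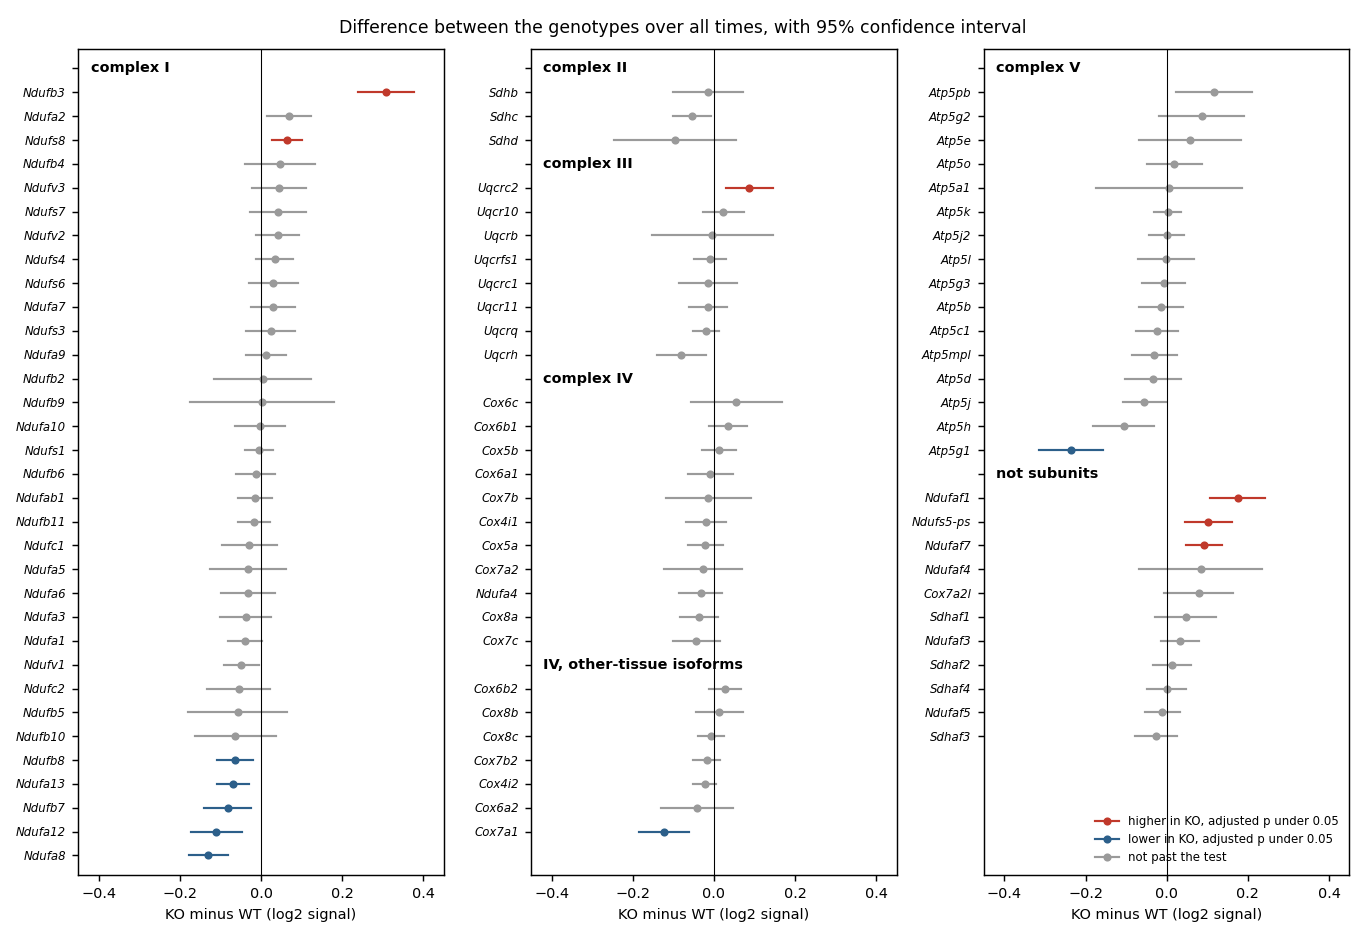
KO minus WT difference in log2 signal (horizontal axis) for the 89 genes, grouped by complex, with points for the estimates and bars for 95% confidence intervals from 36 KO and 36 WT arrays. Red marks the 6 genes higher in KO and blue the 7 lower in KO at an adjusted p under 0.05. Most intervals are narrow and include no difference, and *Ndufb3* (0.31) and *Atp5g1* (-0.24) lie farthest out.

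In complex I, 2 of 33 subunits rose, 5 fell and 26 did not pass the test, with a median difference of -0.01. *Ndufb3*, an accessory subunit of the membrane arm, is the clearest single case. Its 36 KO arrays ran from 9.44 (lowest) over 9.69 (median) to 10.02 (highest), and its 36 WT arrays from 8.87 over 9.38 to 9.69. The ranges overlapped, but 20 of the 36 KO arrays lay above the highest WT array. The means were 9.68 ± 0.13 in KO and 9.37 ± 0.16 in WT (SD), a rise of 0.31 ± 0.03 (SE), or 1.24-fold, with an adjusted p of 3.2e-11 (limma). The KO mean exceeded the WT mean at 11 of the 12 times. The means of the 3 KO sets of 12 arrays (9.70, 9.60 and 9.75) all lay above those of the 3 WT sets (9.38, 9.37 and 9.37).

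The other rise in complex I was that of *Ndufs8*, a core subunit that carries iron-sulfur clusters. It averaged 10.41 ± 0.07 in KO and 10.35 ± 0.09 in WT, a difference of 0.06 ± 0.02 with an adjusted p of 0.012 (limma). Among the 5 falls, that of *Ndufa8*, an accessory subunit with disulfide-bonded cysteines, was the largest. Its arrays ran from 10.35 over 10.49 to 10.70 in KO and from 10.42 over 10.59 to 10.87 in WT, and 8 KO arrays lay below the lowest WT array. It fell by 0.13 (SE 0.02, adjusted p 2.2e-05, limma) and was lower in KO at all 12 times. A second, dimmer probe of *Ndufa8* gave -0.08 ± 0.04 and did not pass. *Ndufa12* (-0.11), *Ndufb7* (-0.08), *Ndufa13* (-0.07) and *Ndufb8* (-0.06), accessory subunits too, were lower in KO at 11, 10, 10 and 10 times, with adjusted p from 0.0093 to 0.049 (limma). With median scaling in place of quantile normalization these 4 and *Ndufs8* kept their sign and no longer passed, while *Ndufb3* and *Ndufa8* did.

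The other core subunits of complex I did not pass. *Ndufv1*, which binds NADH and the flavin, differed by -0.05 ± 0.02, *Ndufv2* by 0.04 ± 0.03, *Ndufs3* by 0.02 ± 0.03 and *Ndufs7*, which carries the last iron-sulfur cluster before ubiquinone, by 0.04 ± 0.03 (SE). The probe of *Ndufs1* averaged 5.92 in both genotypes together, near the 5.90 below which the dimmest 25% of all probes lie, so a change of its mRNA could hardly show. Over all complexes, 1 of 15 core subunits passed, and their differences ran from -0.10 to 0.06.

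None of the 3 measured subunits of complex II, the succinate dehydrogenase shared with the tricarboxylic acid cycle, passed the test. *Sdhb*, its iron-sulfur subunit, differed by -0.01 ± 0.04, and the membrane anchors *Sdhc* and *Sdhd* by -0.05 ± 0.02 and -0.10 ± 0.08 (SE). *Sdhc* and *Sdhd* each passed in 1 of the alternatives run. In complex III only *Uqcrc2*, a structural protein counted here as an accessory subunit, passed among 8 subunits. It ran from 11.62 over 11.76 to 11.96 in KO and from 11.35 over 11.67 to 11.95 in WT, a rise of 0.09 ± 0.03 with an adjusted p of 0.034 (limma). The means of its KO sets (11.77, 11.77 and 11.73) did not lie clear of those of its WT sets (11.64, 11.55 and 11.82), and without the WT array of set 6 at ZT12 it no longer passed. It is the only one of the 13 genes called whose set means overlapped between genotypes. Among all members 16.9% had set means without overlap, and among all genes 20.7%. *Uqcrfs1*, the Rieske iron-sulfur protein, and *Uqcrq* were near background, at 5.96 and 5.90.

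None of the 11 liver subunits of complex IV passed, and their differences lay between -0.04 and 0.06. *Cox4i1*, *Cox5a*, *Cox6a1*, *Cox7a2* and *Cox8a*, the forms found in liver, differed by -0.02, -0.02, -0.01, -0.03 and -0.04. *Ndufa4*, named for complex I and since placed in complex IV, differed by -0.03 ± 0.03 (SE). Of the 7 isoforms from other tissues, *Cox4i2*, *Cox6a2*, *Cox6b2*, *Cox7b2*, *Cox8b* and *Cox8c* had means from 5.82 to 5.97 and did not pass. *Cox7a1*, the heart and skeletal muscle form paired with *Cox7a2*, had a mean of 6.45 and fell by 0.12 (SE 0.03, adjusted p 0.0027, limma). Its arrays ran from 6.15 over 6.40 to 6.65 in KO and from 6.22 over 6.49 to 6.98 in WT, with 3 KO arrays below the lowest WT array.

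A WT array of set 10 at ZT8 carried muscle transcripts. The summed signal of 5 muscle markers was 2498 there, against 327 in the KO array and 312 in the WT array that came next, and *Acta1*, the skeletal muscle actin, stood at 10.78. On this array *Cox6a2* read 7.42, *Cox7a1* 6.83 and *Cox8b* 6.70, and *Cox6a2* and *Cox8b* were highest there. *Cox7a1* read higher on 2 WT arrays without raised muscle markers. These were set 6 at ZT20 (6.98, muscle sum 297) and set 10 at ZT2 (6.86, muscle sum 283). Without the array of set 10 at ZT8 *Cox7a1* still fell, by 0.11 (SE 0.03, adjusted p 0.0046, limma), and the number of members called stayed at 13. Of the muscle markers 0 of 5 differed between genotypes, and 4 of the 5 were dim on average.

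In complex V, 1 of 16 subunits fell, none rose and 15 did not pass. *Atp5g1* is one of the genes that encode subunit c, the ring of Fo that protons turn. Its arrays ran from 10.77 over 11.11 to 11.48 in KO and from 10.83 over 11.36 to 11.80 in WT. The ranges overlapped widely, and 3 KO arrays lay below the lowest WT array. The means were 11.11 ± 0.16 in KO and 11.35 ± 0.18 in WT (SD), a fall of 0.24 (SE 0.04, adjusted p 3.3e-06, limma), with KO lower at all 12 times. The other genes for the same subunit did not pass, *Atp5g2* with 0.09 ± 0.05 and *Atp5g3* with -0.01 ± 0.03 (SE). The catalytic head subunits *Atp5a1* and *Atp5b* differed by 0.00 ± 0.09 and -0.01 ± 0.03, and the stalk subunits *Atp5c1*, *Atp5d* and *Atp5e* by -0.02, -0.03 and 0.06. *Atp5h*, of the peripheral stalk, missed the threshold with -0.11 ± 0.04 and an adjusted p of 0.053 (limma). The probe of *Atp5k* was near background, at 5.95.

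Among the 11 genes that are not subunits, 3 rose and none fell. *Ndufaf1*, a factor of early complex I assembly, averaged 8.98 ± 0.13 in KO and 8.81 ± 0.16 in WT (SD), a rise of 0.17 ± 0.03 with an adjusted p of 4.7e-05 (limma), higher in KO at all 12 times. *Ndufaf7*, a methyltransferase that modifies a core subunit of complex I, averaged 6.68 ± 0.10 in KO and 6.59 ± 0.09 in WT and rose by 0.09 ± 0.02 (adjusted p 0.0013, limma), while its other probes were below the dim level. *Ndufs5-ps* rose by 0.10 ± 0.03 (adjusted p 0.0097, limma), and whether its probe also binds other transcripts was not tested. The assembly factors *Ndufaf3*, *Ndufaf4*, *Ndufaf5* and *Sdhaf1* to *Sdhaf4* and *Cox7a2l* differed by -0.03 to 0.08 and did not pass.

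Of the members on chromosome 4, which also carries *Scp2*, none passed in the fit on all arrays. *Ndufb6*, *Uqcrh*, *Sdhb* and *Ndufaf4* differed by -0.01, -0.08, -0.01 and 0.08, with adjusted p from 0.071 to 0.92 (limma). *Uqcrh*, a small acidic subunit of complex III, had the lowest of these p and passed without the WT array of set 6 at ZT12 (-0.09 ± 0.03, SE, adjusted p 0.038, limma) and in 3 other alternatives. Taking all 13 genes called, *Ndufb3*, *Ndufaf1*, *Ndufaf7*, *Atp5g1*, *Ndufa8* and *Cox7a1* passed the test under each of 16 alternatives run. The other 7 lost the call in 2 to 9 of them, *Ndufb7* most often, and none changed sign. Without KO set 6 the rises numbered 3, and without WT set 6 the falls numbered 4.

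Promoters of *Ndufb3*, *Atp5g1* and *Ndufs8*, called between genotypes, and of *Ndufaf4*, not called but largest in rhythm amplitude, are given as background. They run from 250 bases before to 50 after the start of the gene (RefSeq, GRCm38.p6). The promoters of the other genes called are not printed. Of the 89 genes 74 matched, with 79 promoters. Capitals mark the 3 motifs searched on both strands, GCATGCG (the core of the site of the nuclear respiratory factor NRF1), CCGGAAG (GABP and other ETS factors, also called NRF2) and CACGTG (the E-box that clock proteins and others bind).
*Ndufb3* (chr1:58586147-58586446, plus strand): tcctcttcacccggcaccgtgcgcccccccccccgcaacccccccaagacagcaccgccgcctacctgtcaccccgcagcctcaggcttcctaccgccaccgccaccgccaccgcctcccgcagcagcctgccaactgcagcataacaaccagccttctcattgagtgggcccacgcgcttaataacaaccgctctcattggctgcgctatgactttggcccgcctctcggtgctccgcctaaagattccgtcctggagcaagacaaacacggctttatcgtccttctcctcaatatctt
*Atp5g1* (chr11:96075582-96075881, minus strand): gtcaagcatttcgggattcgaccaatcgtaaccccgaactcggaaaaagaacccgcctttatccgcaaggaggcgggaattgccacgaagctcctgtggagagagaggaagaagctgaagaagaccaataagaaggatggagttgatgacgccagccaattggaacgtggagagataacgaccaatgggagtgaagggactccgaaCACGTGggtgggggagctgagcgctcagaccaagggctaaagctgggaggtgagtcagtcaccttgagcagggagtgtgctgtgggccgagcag
*Ndufs8* (chr19:3912725-3913024, minus strand): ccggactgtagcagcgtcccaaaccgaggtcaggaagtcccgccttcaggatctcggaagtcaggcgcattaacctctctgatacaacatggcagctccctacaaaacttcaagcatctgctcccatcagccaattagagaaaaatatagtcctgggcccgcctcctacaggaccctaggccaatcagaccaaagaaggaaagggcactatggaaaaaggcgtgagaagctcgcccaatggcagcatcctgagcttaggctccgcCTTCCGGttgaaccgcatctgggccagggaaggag
*Ndufaf4* (chr4:24897833-24898132, plus strand): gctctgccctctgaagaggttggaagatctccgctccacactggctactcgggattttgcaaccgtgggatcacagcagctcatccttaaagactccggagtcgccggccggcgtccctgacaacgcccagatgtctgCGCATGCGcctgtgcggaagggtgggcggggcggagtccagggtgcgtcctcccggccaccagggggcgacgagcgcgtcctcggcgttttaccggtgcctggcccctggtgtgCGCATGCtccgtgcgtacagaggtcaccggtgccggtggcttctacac
The window of *Ndufb3* holds none of the 3 motifs, that of *Atp5g1* holds CACGTG 44 bases before the start, that of *Ndufs8* holds CCGGAAG on the other strand 16 bases after it, and that of *Ndufaf4* holds GCATGCG on both strands, in overlap, 111 bases before it and once more on the other strand 3 bases after it. GCATGCG occurred in 12 of the 79 member promoters (15.2%) and in 3.58% of all 32851 promoters, CCGGAAG in 20 (25.3%) and in 8.86%, and CACGTG in 7 (8.86%) and in 7.15%. In the 11 promoters of genes called between genotypes they occurred 1, 3 and 1 times. The windows of *Ndufaf7*, *Ndufb8* and *Atp5b*, extracted with the printed ones but left out, hold none of the 3 motifs. A match shows letters in a window and no binding, and the absence of a match says nothing of the factor.

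At single times, 4 of the gene-by-time tests on members passed, against 0.864% of such tests over all genes, and 2 of the 4 concern *Ndufb3*. At ZT20 *Ndufb3* read 9.74, 9.61 and 10.02 in the 3 KO arrays, against 9.30, 9.07 and 9.41 in the 3 WT arrays, a difference of 0.53 ± 0.10 (SE, adjusted p 0.0013, limma with 24 groups). At ZT12 it read 9.69, 9.64 and 9.44 in KO and 9.38, 8.87 and 9.29 in WT (difference 0.41, adjusted p 0.022, limma). The KO arrays lay above the WT arrays at both times. The 8.87 is from the array that stood apart, and without it the difference at ZT12 was 0.26 with an adjusted p of 0.37 (limma) and did not pass. *Ndufs5-ps* passed at ZT12 as well, with 9.98, 9.79 and 9.90 in KO against 9.67, 9.24 and 9.69 in WT (difference 0.36, adjusted p 0.023, limma). Its 9.24 is from the same array, and without it the difference was 0.21 and did not pass either (adjusted p 0.40, limma). *Atp5g1* passed at ZT16, with 11.15, 11.11 and 11.06 in KO against 11.54, 11.52 and 11.49 in WT, a fall of 0.41 (SE 0.10, adjusted p 0.023, limma), and its groups did not overlap. At the other 9 times no member passed. Without the array that stood apart the calls numbered 3, which were *Atp5g1* at ZT16 and *Ndufb3* at ZT20 and, with 0.37 and an adjusted p of 0.045 (limma), at ZT22. In order from ZT0 to ZT22 the share of all genes that passed was 0.814%, 0.796%, 0.789%, 0.675%, 0.91%, 0.573%, 1.8%, 0.663%, 0.94%, 0.862%, 0.988% and 0.56%, highest at ZT12. Without KO set 4 there was 1 such call among members, and without WT set 9 there were 11.

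**Figure D2:**
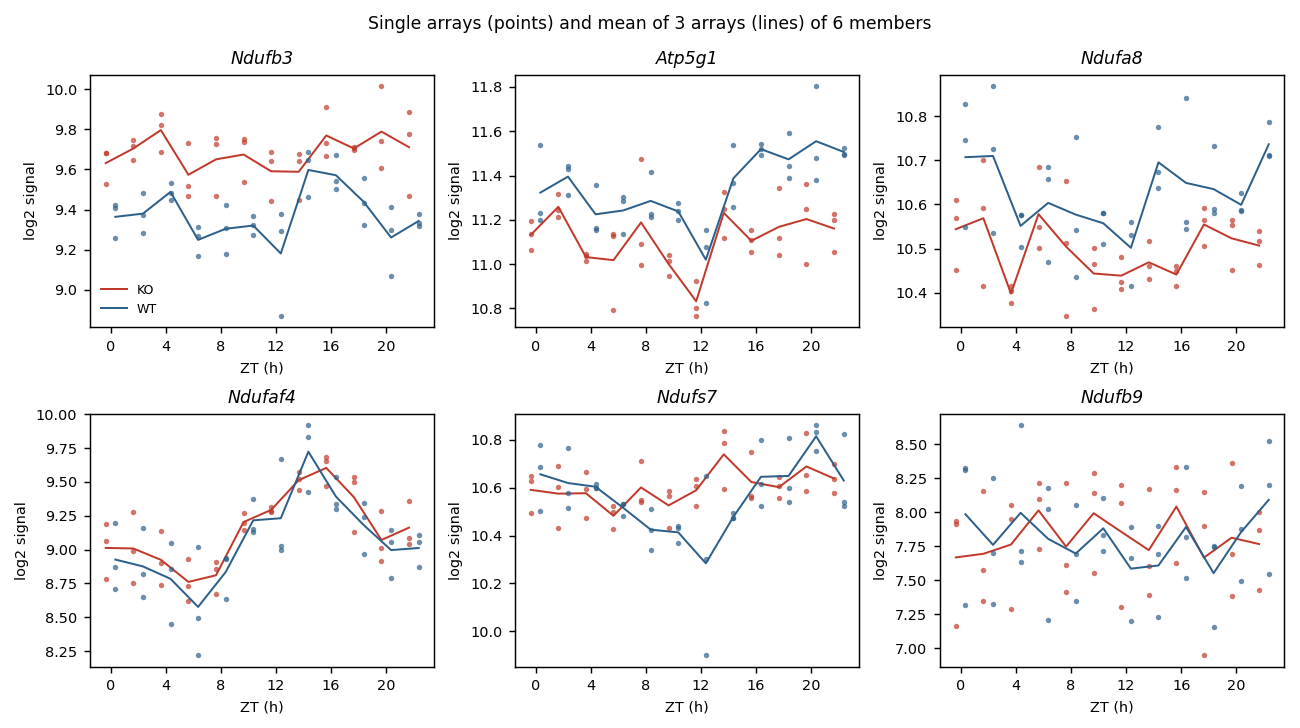
Log2 signal (vertical axis) of 6 genes by ZT in hours, with red points for single KO arrays, blue points for single WT arrays and lines for the means of 3. *Ndufb3* stays higher and *Atp5g1* and *Ndufa8* stay lower in KO across most of the day, *Ndufaf4* follows the same course in both genotypes, *Ndufs7* has fitted amplitudes of 0.06 in KO and 0.17 in WT that did not differ past the threshold, and *Ndufb9* scatters by more than 1 unit with no order in time.

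Averaged over their subunits, the 5 complexes moved little over the day. Each gene was set to its mean over all arrays, the subunits of a complex were averaged on each array, and the 3 arrays of a group were then averaged. The mean of complex I (33 subunits) spanned 0.07 over the 12 times in KO and 0.18 in WT. Complex III (7 subunits above the dim level) spanned 0.07 in KO and 0.15 in WT, complex IV (11) 0.09 in KO and 0.17 in WT, and complex V (16) 0.08 in KO and 0.19 in WT. Complex II, with 3 subunits, spanned 0.15 in KO and 0.29 in WT, with a typical SD among the 3 arrays of 0.15 in KO and 0.14 in WT. For the other complexes the typical SD among the 3 arrays was 0.03 to 0.06 in KO and 0.05 in WT. The spans were not tested against this spread. The means include members, such as *Sdhd* in complex II, that varied together from array to array, as described below. In WT all 5 complexes were lowest at ZT12, and on the array of set 6 at that time they stood at -0.15 to -0.26. Without that array the span in WT was 0.12 for complex I, 0.22 for II, 0.10 for III, 0.14 for IV and 0.12 for V, with the lowest point at ZT8 for complex I and at ZT6 for III.

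**Figure D3:**
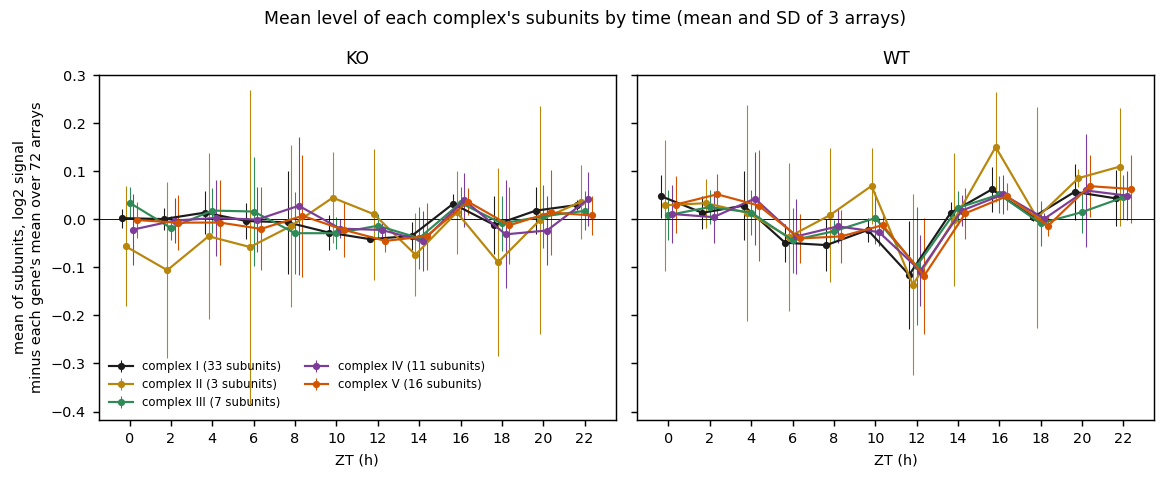
Mean log2 signal of the subunits of each complex relative to the mean over 72 arrays (vertical axis) by ZT in hours, KO left and WT right, with the mean and SD of 3 arrays. The KO lines stay within 0.05 of 0 except for complex II, and the WT lines share a low point at ZT12, where the array of set 6 lies lowest.

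Rhythms were tested in each genotype by regression of the 36 arrays on cosine and sine terms with a period of 24 h (F-test, Benjamini-Hochberg adjustment over all genes). It passed for 6 members in KO (6.74%, against 13.7% of all genes) and for 16 in WT (18%, against 15.8%), and for 2 in both (2.25%, against 9.43%). Of the 13054 genes above the dim level, adjusted among themselves, 2399 passed in KO and 2728 in WT, against 6 and 16 of the 85 members there. The amplitude is the distance from the fitted mean to the fitted peak. *Ndufaf4*, a complex I assembly factor, had the largest amplitude of all members, 0.32 ± 0.04 in KO and 0.36 ± 0.06 in WT (SE), with adjusted p of 7.5e-06 in KO and 0.00021 in WT (F-test). Its peak was at ZT16.0 ± 0.5 h in KO and ZT15.2 ± 0.7 h in WT. At ZT6 its arrays averaged 8.76 in KO and 8.58 in WT, at ZT14 9.51 in KO and 9.72 in WT, and at ZT16 9.60 in KO and 9.39 in WT. *Ndufaf7* was the other gene rhythmic in both, with amplitudes of 0.08 in KO and 0.07 in WT and peaks at ZT2.0 ± 0.9 h in KO and ZT6.1 ± 1.1 h in WT.

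None of the 78 subunits and isoforms passed the rhythm test in both genotypes. In KO the subunits that passed were *Ndufa2*, *Ndufc1*, *Ndufa10* and *Atp5j*, accessory subunits of complex I and a stalk subunit of complex V. *Ndufa2* had an amplitude of 0.12 ± 0.02 and a peak at ZT1.1 in KO, against 0.06 ± 0.02 and ZT22.1 in WT. *Ndufc1* had 0.12 ± 0.03 in KO and 0.08 ± 0.03 in WT, *Ndufa10* 0.09 ± 0.02 in KO and 0.04 ± 0.03 in WT, and *Atp5j* 0.09 ± 0.02 in KO and 0.03 ± 0.03 in WT. All 4 peaked between ZT23.8 and ZT1.5 in KO. For *Ndufc1* and *Atp5j* the genotype that passed depended on the probe. A dimmer probe of *Ndufc1* (mean 9.12) passed for WT only (F-test, adjusted over all probes, 0.0024, against 0.55 for KO). So did a dimmer probe of *Atp5j* with a mean of 7.70 (F-test, adjusted likewise, 0.0013, against 0.35 for KO). The remaining probe of *Atp5j*, near background at 5.90, passed for neither.

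In WT 10 subunits passed, among them 4 core subunits. *Ndufs7* had an amplitude of 0.06 ± 0.02 in KO and 0.17 ± 0.03 in WT (SE), with a peak at ZT21.8 in WT. At ZT20 its arrays read 10.65, 10.83 and 10.59 in KO and 10.83, 10.86 and 10.75 in WT, and at ZT8 they read 10.54, 10.55 and 10.71 in KO and 10.51, 10.34 and 10.42 in WT. *Ndufv2*, *Ndufs8* and *Atp5d* had amplitudes of 0.04, 0.02 and 0.03 in KO and of 0.11, 0.07 and 0.13 in WT. *Atp5g1* had 0.09 ± 0.04 in KO and 0.17 ± 0.03 in WT with peaks at ZT21.7 in KO and ZT20.1 in WT. The others were *Ndufa13*, *Ndufb7*, *Ndufs6*, *Uqcr11* and *Cox5a*, with amplitudes from 0.01 to 0.06 in KO and from 0.07 to 0.10 in WT. Of the genes that are not subunits, *Sdhaf1*, *Sdhaf3*, *Cox7a2l* and *Ndufaf5* passed in WT only, *Cox7a2l* with 0.03 ± 0.03 in KO and 0.18 ± 0.04 in WT and a peak at ZT10.1 in WT.

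A rhythm past the threshold in one genotype and not in the other is no difference between them, and the difference itself passed for none of the 89 genes (limma F-test of genotype by cosine and sine), against 0.127% of all genes. At an unadjusted p under 0.05 it passed for 12 of the 89, against 1406 of all 16593 genes. With time as a factor of 12 levels it again passed for none after adjustment. The smallest unadjusted p was 0.0016 for *Ndufs7*, with an adjusted p of 0.19 (limma). Without the WT array of set 6 at ZT12, 14 members were rhythmic in WT, *Atp5d* and *Ndufaf5* no longer among them. The count in WT was 6 without set 10, 10 without set 6 and 6 without set 9, and that in KO was 3 without set 4.

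**Figure D4:**
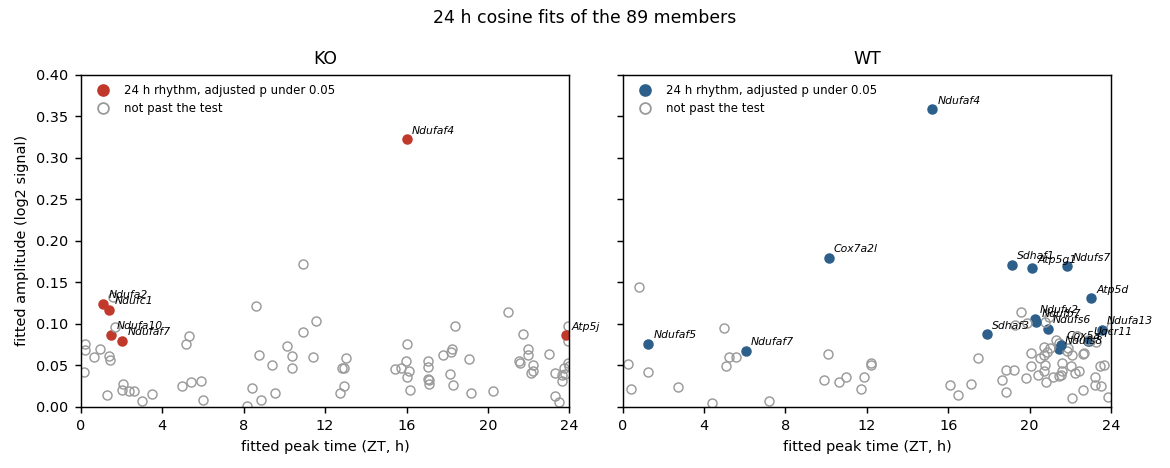
Fitted amplitude in log2 signal (vertical axis) against fitted peak time in ZT hours for the 89 genes, KO left and WT right, with filled points for a rhythm at an adjusted p under 0.05. *Ndufaf4* stands apart in both genotypes (0.32 in KO, 0.36 in WT), and the fitted peaks gather late in the night in WT.

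The fitted peak times of the subunits were also counted whether or not the rhythm passed. Between ZT18 in the dark and ZT2, after lights on, lay the peaks of 37 of the 70 liver subunits above the dim level in KO (52.9%) and of 59 of 70 in WT (84.3%). Of all 13054 genes above that level 33.5% peaked in this window in KO and 34.3% in WT. Without the WT array of set 6 at ZT12 the count in WT was 56 of 70. In the whole dark phase, from ZT12 to ZT24, lay 42 of the 70 peaks in KO (60%, against 48.3% of all genes above the dim level) and 59 in WT (84.3%, against 49.9%). The first window was chosen after the peaks were seen, the subunits share their arrays, and their median amplitude was 0.05 in KO and 0.06 in WT, so these counts are a description with no test.

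Many members also varied together from array to array within the groups. *Ndufb9*, an accessory subunit of complex I, ranged from 6.95 to 8.64 over the 72 arrays, and its SD among the 3 arrays of a group was 0.43, against a median of 0.11 over the 77 members outside the set described next. After subtraction of the group means, 11 of the other 88 members followed it with a correlation above 0.7 (12.5%, against 1.65% of all other genes). The 11 were *Ndufb2*, *Sdhd*, *Uqcrb*, *Cox7b*, *Atp5e*, *Atp5a1*, *Cox6c*, *Ndufb5*, *Ndufb10*, *Ndufb4* and *Cox7a2*, from all 5 complexes. For *Ndufb2* Pearson's r was 0.94 and Spearman's rho 0.92, 0.95 in KO and 0.93 in WT alone (r), and 0.93 without the 2 arrays farthest out. For *Cox7a2*, the lowest of the 11, r was 0.79, rho 0.81 and r without those arrays 0.79. The set was chosen by these correlations, so they carry no p. In the reported fits none of the 12 was called between genotypes or rhythmic in either, and the SE of their differences was 0.04 to 0.09. *Sdhd* was called with a replicate block of number and time, as given below.

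**Figure D5:**
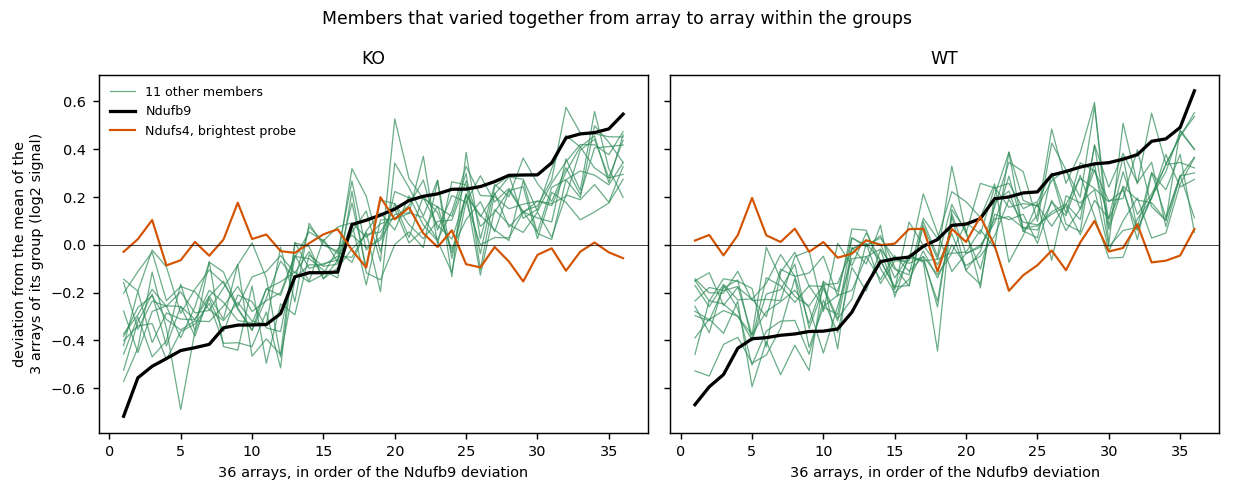
Deviation of each array from the mean of its group in log2 signal (vertical axis) for *Ndufb9* (black), the 11 members that followed it (green) and the brightest probe of *Ndufs4* (orange), over the 36 KO arrays left and the 36 WT arrays right, in order of the *Ndufb9* deviation. The green lines climb with *Ndufb9* in both genotypes, and *Ndufs4* does not.

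The shared variation depended on the probe. *Ndufs4*, an accessory subunit of complex I, has 4 probes. The brightest had an r of -0.22 with *Ndufb9*, and the other 3 had 0.85, 0.86 and 0.91. The brightest probe of *Ndufa5*, another accessory subunit, had -0.35 and its dimmer one 0.91. Probes of one gene therefore went separate ways on the same arrays. Outside the members *Esd* (0.95), *Ddt* (0.94), *Apoh* (0.94), *Paip2* and *Glrx3* (both over 0.92) were most like *Ndufb9* among all genes. The mean deviation of the 12 ran from -0.39 to 0.39 over the KO arrays and from -0.37 to 0.37 over the WT arrays, and its correlation with the log2 median signal of the array was -0.335 over 72 arrays. In the authors' values, the deviations of KO and WT animals of the same number and time correlated by 0.50 to 0.86 for the 12, as given below. Whether RNA quality, probe position or biology goes with this variation was not tested.

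Genes next to the complexes were counted from lists, which were chosen with earlier results of these data known. The shares to read these counts against are the 5.93% of all genes higher and the 6.38% lower in KO. Of 13 genes of electron carriers and their synthesis, 7 rose and none fell, with a median difference of 0.10. Among them were *Etfdh*, which passes electrons from fatty acid oxidation to ubiquinone (9.32 ± 0.19 in KO and 9.04 ± 0.24 in WT, adjusted p 5.3e-06, limma), and *Coq9*, needed for ubiquinone synthesis (0.18 ± 0.03, SE). *Cyc1*, the cytochrome c1 of complex III that the prefix rule does not reach, averaged 10.25 ± 0.08 in KO and 10.12 ± 0.21 in WT (adjusted p 0.0083, limma). Of 26 other assembly factors 9 rose and none fell, with a median of 0.04, led by *Cox15* (0.28) and *Cox19* (0.24) of complex IV assembly. Of 12 tricarboxylic acid cycle genes 5 rose and none fell, with a median of 0.08, led by *Dlst* (0.36) and *Cs*, the citrate synthase (0.22). Of 14 regulators of mitochondrial biogenesis only *Tfb1m* rose (0.14). Of 7 carriers *Vdac3* rose (0.14) and *Vdac1*, a pore of the outer membrane, fell by 0.15. With median scaling the rises in the first 3 lists numbered 3, 5 and 2, and their medians stayed positive.

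Markers of other cells bear on bulk levels, and again 6.38% of all genes were lower in KO. Of 5 hepatocyte markers 1 (*Alb*) was lower in KO. Its probe averaged 6.05 in KO and 6.11 in WT, close to the dim level of 5.90, so it hardly measures albumin mRNA. The hepatocyte markers' summed signal ran from 39856 to 52103 in KO and from 43245 to 52392 in WT. Of 8 endothelial markers 4 were lower in KO, led by *Oit3* (-0.22) and *Clec4g* (-0.19), with sums from 2160 to 2957 in KO and from 2425 to 4175 in WT. Of 8 macrophage markers none differed, with sums from 858 to 2116 in KO and from 831 to 4090 in WT, and among 8 stellate and fibroblast markers only *Reln* was lower. Of 5 T and B cell markers *Cd3d* was lower, and none of the 3 bile duct, 2 red cell, 2 brown fat and 2 pancreas markers differed. Their part in the differences between genotypes was not tested.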

How the data were processed

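Total liver RNA of 36 *Scp2* KO and 36 WT mice was measured on Illumina mouse BeadChips. The intensity of each probe was deposited by the authors as an average signal with no normalization and no detection p-values. The authors also deposited normalized log2 values, for which only the Partek software is named in the submitters' processing notes, with its settings not given in the sources used here. Genotype and time of each array came from the labels.

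Signals were corrected with normexp (offset 50), quantile normalized and taken as log2 with limma 3.58.1 in R 4.3.3 (with the package data.table, version 1.17.8). The annotation names 1 gene for 23978 of 25697 probes, and the probe with the highest mean stood for its gene. Genotypes were compared with limma over all times and at each time (24 groups), rhythms by harmonic regression with a 24 h period and an F-test in each genotype, and their difference with limma's interaction F-test. Every test ran on all 16593 genes with Benjamini-Hochberg adjustment and a threshold of 0.05. Fits were tested on simulated data. The number of arrays limits the precision, and near background differences are understated. P-values measure the spread between arrays, one per animal by the study's account.

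Alternatives were the authors' values, no background correction, median scaling, a filter on dim genes, all probes, time as a factor, sets as a random block, replicate blocks, means of 3 animals, and leaving out single arrays and sets. The members and lists were chosen with earlier results of these data known. Named were core subunits, up to 4 rises and falls per complex, up to 6 members rhythmic in both genotypes and 4 in one, other-tissue isoforms with their liver forms, genes caught by prefix only, members on chromosome 4, and the brightest and dimmest. The members that follow *Ndufb9* were named after their values were seen.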

Additional observations from a re-analysis of the deposited data

How the results depend on the processing

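Over all alternatives, 72 of 89 counts of members stayed within 1.5 times the reported one. Some of these had little room to move, since leaving out arrays of one genotype keeps all arrays of the other in its rhythm fit. Median scaling gave 3 members higher and 3 lower in KO, 1 call at single times, 2 rhythmic in KO and 3 rhythmic in WT. With the mean of 3 animals at each time 2 members were rhythmic in KO and 8 in WT, and with time as a factor of 12 levels 3 in KO and 4 in WT. The cause of these shifts was not tested, though means leave 12 values per genotype. Leaving out 1 set of 12 arrays at a time gave 3 to 6 members higher and 4 to 9 lower in KO, 1 to 11 calls at single times, 3 to 7 rhythmic in KO and 6 to 16 in WT. The 16 in WT came from leaving out KO sets. Leaving out WT sets 10, 6 and 9 gave 6, 10 and 6. The count of rhythm differences was 0 in all 14 alternatives. Without the WT array of set 6 at ZT12, an alternative chosen after seeing the data, 5 members were higher and 8 lower in KO.

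With the replicate block of the labels' numbers in the authors' values, 6 members were higher and 7 lower, 4 calls were made at single times, and no rhythm difference passed. *Ndufb7* left the called genes and *Atp5h* joined them. KO and WT animals of the same number and time had correlated deviations from their group means in 22 of 36 pairs (r over 0.1, range -0.11 to 0.34), with a median of 0.129, and 24 of 36 KO arrays correlated best with the WT array of their own number. Averaged over all times, the deviations of KO and WT animals of the same number correlated by 0.0663, -0.183 and -0.086 for numbers 1, 2 and 3. The pairs are a hint from the data of something shared within a number and time, and not by number over all times. Not every pair was over 0.1 and no label says what a number marks, so the reported fit has no block. For the 12 members that varied with *Ndufb9* this correlation over pairs was 0.50 to 0.86, and it was over 0.5 for 4.13% of all genes. A replicate block of number and time, chosen after seeing the data, called 7 higher and 10 lower, all 13 reported genes among them. The 4 it added were *Atp5h*, *Ndufa2*, *Uqcrh* and *Sdhd*, the last one of the 12, with -0.08 ± 0.03 (SE) and an adjusted p of 0.034 in this block (limma), against -0.10 ± 0.08 and 0.56 in the reported fit.

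The median difference of all genes was -0.00028 with quantile normalization and -0.0016 with median scaling. For the dim probes of *Ndufs1*, *Uqcrfs1*, *Uqcrq* and *Atp5k* and most other-tissue isoforms, the signal over background limits what can be seen.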
